A study of Homo sapiens with 2 samples.

Results

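FKBP5 and 8 genes of the signalling proteins that its product is known to scaffold were described in HEK293T cells with a stable FKBP5 knockdown. The 9 members were FKBP5, AKT1, AKT2, PHLPP1, PHLPP2, CHUK, IKBKB, IKBKG and GSK3B, chosen by name and matched by symbol to Ensembl IDs among 60683 rows of the count table. All 9 matched 1 ID each, and all 9 passed the filter of a mean of at least 1 CPM (counts scaled to library size, as the authors deposited them). Close relatives outside the list, GSK3A, FKBP4, IKBKE and TBK1, were read beside them. HEK293T is a human embryonic kidney line that carries the SV40 large T antigen. Both RNA-seq samples belong to 1 group, cells in which short hairpin RNAs against FKBP5 were stably expressed. The labels name neither the hairpins nor a clone, nor whether 1 culture or 2 gave rise to the samples. The SD therefore measures only the spread between these samples, which may be technical, and the p-values cover counting error only. Cells with a scrambled control were not analysed here, so the values are levels in knockdown cells and differences between 2 libraries, and none is an effect of the knockdown.

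FKBP5 encodes FKBP51, an immunophilin with a peptidyl-prolyl isomerase domain and a tetratricopeptide domain that docks onto HSP90. FKBP51 is known to bring the phosphatase PHLPP to the kinase AKT, where PHLPP removes the phosphate from the hydrophobic motif of AKT and so lowers its activity. It is also known to bind subunits of the IKK complex, which is built from the kinases IKK-alpha (CHUK) and IKK-beta (IKBKB) and the scaffold NEMO (IKBKG) and which frees NF-kappaB by marking its inhibitors for destruction. GSK3B is a kinase that AKT inhibits. AKT, PHLPP, the IKK kinases and GSK3 each come as close paralogs, so the choice of paralog was the question asked of these libraries.

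A count can be assigned to 1 paralog only where the transcripts differ, so the most alike coding stretches are shown first. Sequences are from GENCODE 29 (GRCh38), 5′ to 3′ on the coding strand, 90 bases around the longest run that 2 paralogs share without a mismatch, and capitals mark each position at which the sequences shown together differ. The AKT stretches lie at chr14:104773523-104773943 (AKT1) and chr19:40238034-40238936 (AKT2), both on the minus strand and each across an exon junction.
AKT1: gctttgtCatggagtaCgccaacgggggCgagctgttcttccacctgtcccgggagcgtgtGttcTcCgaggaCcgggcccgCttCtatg
AKT2: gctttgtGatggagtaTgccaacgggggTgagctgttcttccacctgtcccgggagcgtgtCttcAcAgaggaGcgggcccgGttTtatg
Of these 90 positions, 9 differed between AKT1 and AKT2. The longest run shared by their coding sequences was 32 bases, and identity over 1437 aligned coding bases was 80.2%.

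The phosphatase paralogs were less alike. Their stretches lie within 1 exon each, at chr18:62979189-62979278 on the plus strand (PHLPP1) and chr16:71649010-71649099 on the minus strand (PHLPP2).
PHLPP1: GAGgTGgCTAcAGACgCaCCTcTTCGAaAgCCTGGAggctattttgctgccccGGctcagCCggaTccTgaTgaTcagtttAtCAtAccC
PHLPP2: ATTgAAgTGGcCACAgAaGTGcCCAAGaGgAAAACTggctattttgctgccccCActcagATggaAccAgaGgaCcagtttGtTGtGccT
They differed at 41 of 90 positions around a longest shared run of 17 bases, with 64.0% identity over the aligned coding bases. CHUK and IKBKB shared no run longer than 14 bases and were 60.9% identical. The GSK3 stretches, at chr19:42233363-42234421 (GSK3A) and chr3:119905832-119912772 (GSK3B), both on the minus strand and across an exon junction, differed at 15 positions.
GSK3A: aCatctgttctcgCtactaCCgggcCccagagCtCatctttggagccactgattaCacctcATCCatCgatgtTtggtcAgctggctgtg
GSK3B: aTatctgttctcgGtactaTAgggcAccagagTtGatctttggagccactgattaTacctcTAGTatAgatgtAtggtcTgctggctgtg
Their longest shared run was 20 bases. FKBP4 encodes FKBP52, the HSP90 co-chaperone most like FKBP51. Its stretch, at chr12:2797761-2797850 on the plus strand, and that of FKBP5, at chr6:35620153-35620242 on the minus strand, differed at 24 positions.
FKBP4: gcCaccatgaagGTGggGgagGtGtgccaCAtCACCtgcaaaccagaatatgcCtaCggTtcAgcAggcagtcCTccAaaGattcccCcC
FKBP5: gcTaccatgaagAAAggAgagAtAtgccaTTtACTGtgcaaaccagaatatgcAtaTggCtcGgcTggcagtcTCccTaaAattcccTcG
The longest run they shared was 17 bases, at 63.9% identity. None of the pairs compared therefore shared a coding stretch of 50 bases.

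IKBKG was the member whose counts could be confused with a copy. The pseudogene IKBKGP1 repeats its coding bases 390 to 1461, counted from the start codon, without a mismatch, a run of 1072 bases or 73.4% of the coding sequence. The first stretch of that run that lies in 1 exon, at chrX:154556165-154556224 on the plus strand, is identical in both and is shown in lower case throughout.
IKBKG: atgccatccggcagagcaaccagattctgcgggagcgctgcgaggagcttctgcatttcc
Of the 50-base stretches in IKBKG transcripts, 73.7% occurred in no other gene's transcript, and at least 99.06% did so in each of the other 8 members. The pseudogene itself had 3 counts in sample 1 and 15 in sample 2. How reads that fit both places were treated was not given in the sources used here, so the IKBKG level is uncertain.

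Sample 1 was sequenced to 9997706 counts and sample 2 to 21284648, which makes a level more precise in sample 2. The 4 genes fixed as markers of HEK293 cells (VIM, PAX2, NEFM and LIN28B) all had at least 1 CPM, with summed levels of 314 CPM in sample 1 and 305 CPM in sample 2. Of the 4 blood cell markers reported here none reached a mean of 1 CPM, of 4 fibroblast markers 1 did (COL1A1, 59.7 CPM), and of 3 squamous epithelial markers none did. These summed blood markers were 0.675 and 1.56 CPM, the fibroblast markers 55.3 and 66.5 CPM and the squamous markers 0.771 and 0.412 CPM. CD3E had no count in sample 1 and HBB none in sample 2, and no marker was at 0 in both. Their part in any result was not tested. In a bulk sample fewer cells of a type and less RNA per cell cannot be told apart.

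The 9 members spanned a 65.8-fold range of level per length, from AKT1 at the top to FKBP5 at the bottom. Levels of different genes are given as CPM per kilobase, the deposited CPM divided by the length of all annotated exons of the gene joined. Intervals are 95% exact Poisson intervals and, like the floor of 3 counts (0.289 CPM for sample 1 and 0.137 CPM for sample 2), cover counting error only. The order was AKT1, AKT2, CHUK, GSK3B, PHLPP1, IKBKG, IKBKB, PHLPP2 and FKBP5, and each member's lower sample lay above the higher sample of the next. For 2 neighbouring pairs, PHLPP1 with IKBKG and IKBKG with IKBKB, the counting intervals overlapped in at least 1 sample. The order was not tested, and places other than that of FKBP5 changed with the length used. The median of the 9 was 5.10 CPM per kilobase, beside 4.75 for all genes tested that have a length.

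**Figure D1:**
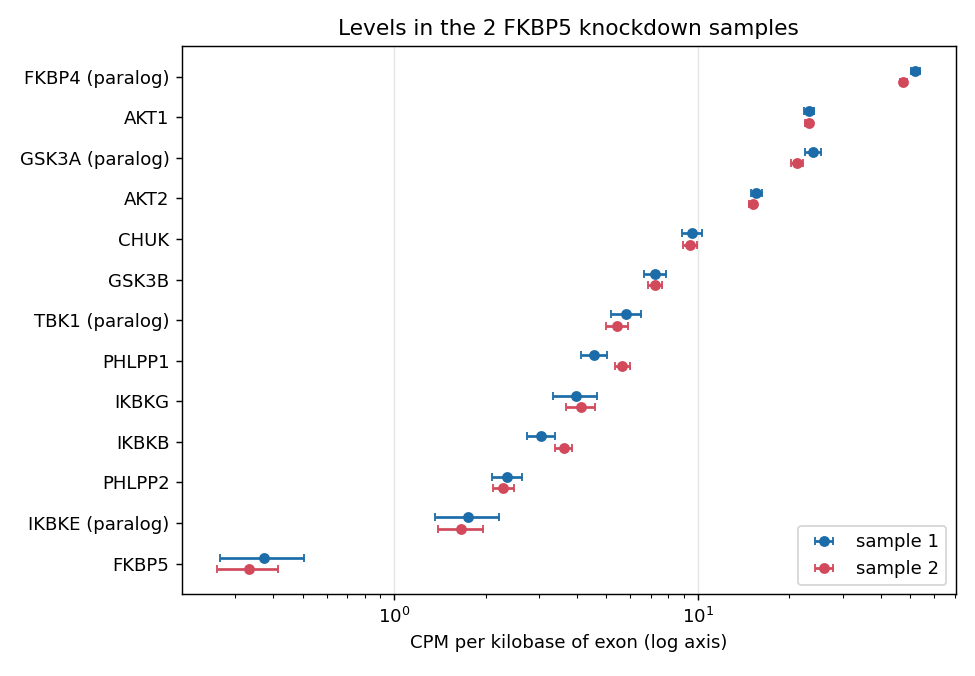
Level of each member and paralog (rows) in CPM per kilobase of exon on a log axis, with a point for each FKBP5 knockdown sample and bars for the 95% exact Poisson interval. FKBP5 lies lowest, at 0.372 and 0.332 CPM per kilobase, and its paralog FKBP4 highest, at 52.0 and 47.5.

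FKBP5, the gene targeted by the hairpins, had 41 counts in sample 1 and 77 in sample 2. Per length this was 0.372 CPM per kilobase (interval 0.267 to 0.504) and 0.332 CPM per kilobase (0.262 to 0.414), a mean of 0.352 ± 0.0285 (SD, n = 2). Both samples were low and their intervals overlapped. Of the genes tested that have a length, 5.07% had a lower level per length of joined exons. With no length, FKBP5 stood at 3.74 CPM, among the 5215 of 15530 genes tested that averaged 1 to 10 CPM. The gene (ENSG00000096060, chromosome 6, 35573585 to 35728583, minus strand) holds 10628 exonic bases, of which none overlap exons of another gene on either strand. FKBP4 stood 141.5 times higher per length of joined exons, at 49.8 ± 3.21 CPM per kilobase, but 68.7 times higher per coding length and 69.0 times higher in CPM with no length. Between these co-chaperones FKBP5 held 0.709% of the summed level in sample 1 and 0.693% in sample 2. How far the hairpins lowered FKBP5 cannot be read from these values, since no control was analysed here. Nearness to FKBP5 among the 83 pathway genes listed around the members was ranked per length of joined exons only. The 3 nearest were INPP4B (1.17-fold apart), INPP5D (1.26-fold) and REL (1.92-fold). In CPM with no length, INPP4B stood at 4.25 and INPP5D at 3.83, but BAD (3.50) lay nearer to FKBP5 (3.74) than REL (8.87) did. Likeness here is the ratio of mean levels over 2 samples of 1 group, because no pattern across conditions exists.

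AKT1 and AKT2 were both abundant, with AKT1 the higher per length of joined exons. AKT1 (ENSG00000142208, chromosome 14, 104769349 to 104795751, minus strand), the AKT gene expressed in most tissues, had 2681 and 5647 counts, or 258 CPM in each sample. Per length it stood at 23.1 CPM per kilobase in each sample, above 87.0% of genes. AKT2 (ENSG00000105221, chromosome 19, 40230317 to 40285536, minus strand), the AKT gene best known for its part in insulin responses, had 2432 and 4983 counts. These were 234 and 228 CPM, or 15.6 and 15.2 CPM per kilobase, above 79.8% of genes. The values of AKT1 and AKT2 did not overlap on this scale.

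Of the summed level of AKT1 and AKT2 per length, AKT1 held 59.8% in sample 1 and 60.4% in sample 2. AKT1 stood 1.48 times above AKT2 in sample 1 (95% exact interval 1.41 to 1.57) and 1.53 times in sample 2 (1.47 to 1.59). This order turned over with the length used. When the longest annotated transcript was taken as length, AKT2 (5300 bases) held 58.6 ± 0.474% of the sum and AKT1 (8396 bases) 41.4%. The joined exons of AKT2, which has 42 annotated transcripts, cover 15035 bases, against 11162 in AKT1 with 20 transcripts. Per coding length, nearly equal at 1440 and 1443 bases, AKT1 was 1.10 times AKT2 in sample 1 (1.05 to 1.17) and 1.14 times in sample 2 (1.09 to 1.18). Which transcripts the cells used is not resolved by counts per gene. The order of AKT1 and AKT2 per transcript was therefore not settled.

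**Figure D2:**
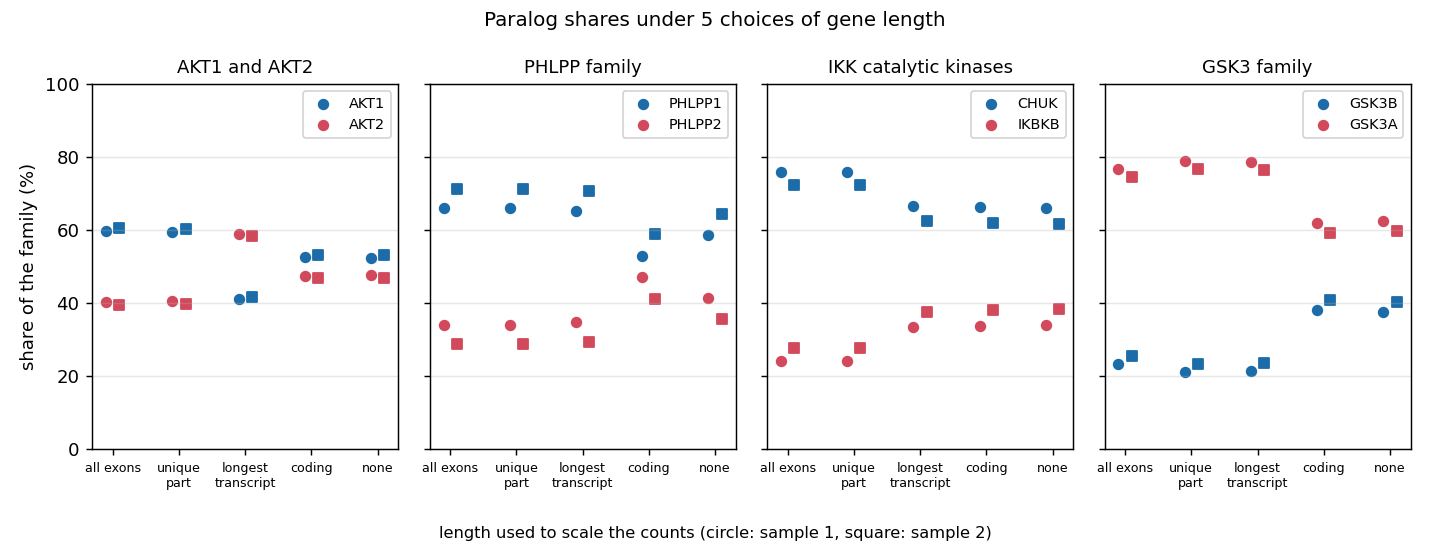
Share of each paralog in its family's summed level (%, vertical axis from 0 to 100) under 5 lengths used to scale the counts (horizontal axis), with circles for sample 1 and squares for sample 2. AKT1 and AKT2 change places when the longest transcript is the length, while PHLPP1, CHUK and GSK3A hold the larger share throughout.

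PHLPP1 was the higher of the phosphatase genes. It (ENSG00000081913, chromosome 18, 62715450 to 62980433, plus strand) had 432 counts in sample 1 and 1128 in sample 2, or 4.55 and 5.65 CPM per kilobase. PHLPP2 (ENSG00000040199, chromosome 16, 71637835 to 71724701, minus strand) had 305 and 625 counts, or 2.35 and 2.29 CPM per kilobase. Both samples of PHLPP1 lay above both of PHLPP2. PHLPP1 held 65.9% of the summed level in sample 1 and 71.2% in sample 2. Its ratio to PHLPP2 was 1.94 (interval 1.67 to 2.25) in sample 1 and 2.47 (2.23 to 2.72) in sample 2. Per coding length, which is 5151 bases in PHLPP1 and 4074 in PHLPP2, the ratio was 1.12 in sample 1 with an interval that includes equality (0.965 to 1.30), and 1.43 in sample 2 (1.29 to 1.58). Exons of PHLPP2 overlap those of genes on the opposite strand over 11.01% of their length, mainly MARVELD3, which had 36 and 79 counts. The libraries were directional, but the strand setting of the counting was not given in the sources used here, so reads of such partners cannot be told apart.

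Within the IKK complex, CHUK transcripts were the most abundant. CHUK (ENSG00000213341, chromosome 10, 100188298 to 100229619, minus strand), the kinase also needed for the non-canonical NF-kappaB pathway, had 689 and 1428 counts, or 9.59 and 9.43 CPM per kilobase. IKBKB (ENSG00000104365, chromosome 8, 42271302 to 42332653, plus strand), the main kinase of the canonical pathway, had 356 and 888 counts, or 3.05 and 3.61 CPM per kilobase. IKBKG (ENSG00000269335, chromosome X, 154541199 to 154565046, plus strand), the scaffold without kinase activity, had 145 and 317 counts, or 3.96 and 4.11 CPM per kilobase. CHUK was above the other subunits in both samples. CHUK held 75.8% of the summed level of the kinase genes in sample 1 and 72.3% in sample 2, and at least 61.7% in each sample under the other lengths. IKBKG to IKBKB stood at 1.30 (interval 1.06 to 1.58) in sample 1 and 1.14 (0.997 to 1.29) in sample 2. That order also turned over: with the longest transcript as length the ratio of means was 0.827, and with coding length 0.590. Scaled to the part of its exons found in no other gene, a length added after the values were seen, IKBKG stood at 5.47 CPM per kilobase, above PHLPP1 at 5.14. Exons on the opposite strand overlap 9.69% of the exonic bases of IKBKG.

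The IKK-related kinases, which act in innate immune signalling, were lower than CHUK. TBK1 (ENSG00000183735) had 287 and 565 counts, or 5.81 and 5.43 CPM per kilobase, and 0.606 and 0.576 times the CHUK level. IKBKE (ENSG00000263528) had 69 and 138 counts, or 1.75 and 1.67 CPM per kilobase, with CHUK at 5.46 (interval 4.26 to 7.10) and 5.66 (4.75 to 6.79) times its level. That ratio was 9.60 and 9.95 with coding length, and 9.99 and 10.3 with no length. Among the members and paralogs, IKBKE was the nearest to FKBP5, at 4.86 times its level, while per kilobase of coding length they stood at 3.02 and 2.73 CPM.

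GSK3B (ENSG00000082701, chromosome 3, 119821323 to 120094417, minus strand) had 612 and 1286 counts, or 7.23 and 7.21 CPM per kilobase. Its samples differed by less than their counting intervals. GSK3A (ENSG00000105723, chromosome 19, 42230186 to 42242625, minus strand), a kinase with largely overlapping roles, had 1023 and 1910 counts, or 23.9 and 21.2 CPM per kilobase. GSK3A was the higher in both samples, and GSK3B held 23.2% and 25.4% of their sum. Per coding length the GSK3B share was 39.5 ± 1.996% (the longest GSK3B transcript has 7711 bases and the longest GSK3A transcript 3524, while their coding lengths are 1410 and 1449). On the same strand, 11.6% of the exonic bases of GSK3A lie in exons of AC006486.1, which had no count in either sample. Whether GSK3A lost reads to this overlap was not tested. Its mean was 22.5 CPM per kilobase of joined exons. Scaled to the part of its exons found in no other gene, a length added after the values were seen, GSK3A stood at 25.3.

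One member of 9 differed between the 2 libraries by the count test. That test, a 2-sided exact binomial test of a gene's 2 counts against the share set by the deposited library sizes, compares these libraries and not conditions. Over the 15530 genes that averaged 1 CPM or more, 8.97% passed at an adjusted p (Benjamini-Hochberg) under 0.05, 4.41% higher in sample 2 and 4.56% lower. Among the members 1 was higher (11.1%) and none was lower, a share near that background. PHLPP1 stood at 41.6 CPM in sample 1 against 51.6 CPM in sample 2, a ratio of 1.24 (interval 1.11 to 1.39, adjusted p = 0.00367 by the exact binomial test). Its log2 ratio of CPM + 1 was 0.30, beside an SD of 0.16 over the 8033 genes at 10 to 100 CPM. IKBKB went the same way, from 34.3 to 40.6 CPM, a ratio of 1.18 (1.05 to 1.34), but did not pass (adjusted p = 0.0663 by the exact binomial test). It passed with median-ratio scaling (adjusted p = 0.0461) and among genes of at least 10 CPM (0.0489), within a range of 0.0461 to 0.169 over the alternatives.

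The other 7 members had ratios of sample 2 to sample 1 from 0.892 to 1.04, and each interval included 1. For FKBP5 the interval of the ratio was 0.603 to 1.34. For AKT1, with 2681 counts in sample 1 where FKBP5 had 41, it was 0.955 to 1.05. The median log2 ratio of the members was 0.00 (as coded, sample 2 over sample 1), beside 0.01 over all genes tested. Of the paralogs, FKBP4 was lower in sample 2 at a ratio of 0.913 (0.872 to 0.956, adjusted p = 0.00294 by the exact binomial test), and GSK3A at 0.886 (0.821 to 0.957, adjusted p = 0.0284). GSK3A did not pass with median-ratio scaling (adjusted p = 0.0522) or without a filter (0.0741). IKBKE and TBK1 did not pass.

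**Figure D3:**
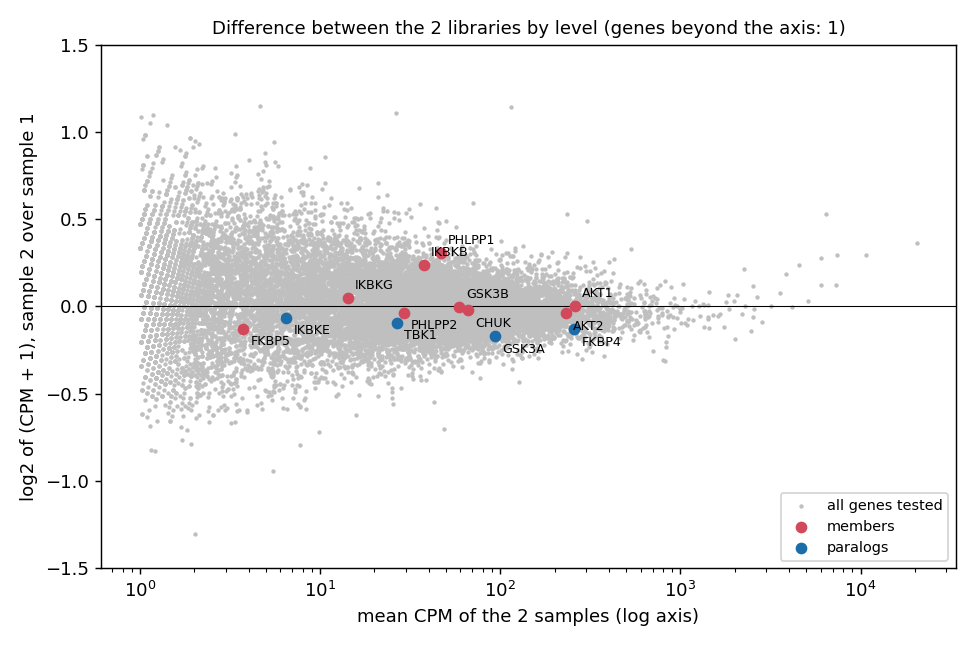
Log2 of CPM + 1 in sample 2 over sample 1 (vertical axis) against mean CPM on a log axis, with grey points for the 15530 genes tested, red for the 9 members and blue for the 4 paralogs. PHLPP1 (0.30) is the highest of the labelled genes and GSK3A (-0.17) the lowest, and all lie inside the grey cloud.

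The genes around the members were read from 9 lists of 83 genes. Their levels per length of joined exons had a median of 8.50 CPM per kilobase. On that scale 4 of the 83 lay below FKBP5 (PIK3R2, BIRC3, RNF31 and INPP4B). In CPM with no length, INPP4B (4.25) lay above FKBP5 (3.74) and BAD (3.50) below it. PI3K makes the lipid that recruits AKT, and mTORC2 phosphorylates its hydrophobic motif. In that list of 12 genes the median was 3.34 CPM per kilobase, from MLST8, a subunit of both mTOR complexes, at 71.7 ± 5.38 to PIK3R2 at 0.0522 ± 0.0166. PIK3R2, a regulatory subunit of PI3K, had 3 and 4 counts, and 87.2% of its exonic bases lie in exons of AC007192.1 on the same strand, so a low level and reads lost to the overlap cannot be told apart. The same limit touched RNF31, of the linear ubiquitin ligase complex, with 8 and 14 counts and 34.8% overlap with another gene. Among phosphatases and brakes on AKT the median was 11.2 CPM per kilobase, from PPP2R1A, the scaffold of protein phosphatase 2A, at 39.6 ± 1.17 to the lipid phosphatase INPP4B at 0.300 ± 0.00865. AKT substrates and outputs had a median of 15.2 CPM per kilobase, from CDKN1B, a cell cycle inhibitor, at 40.1 ± 1.12 to BAD, a cell death regulator, at 2.05 ± 0.133.

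Regulators of PHLPP and other PHLPP targets had a median of 6.54 CPM per kilobase. NHERF1, a scaffold that binds PHLPP, was highest at 40.1 ± 4.11, and USP46, a deubiquitinase of PHLPP, lowest at 3.57 ± 0.174. The chaperone and ubiquitin partners of FKBP51 were the most abundant list by median, at 58.7 CPM per kilobase. HSP90AB1, the constitutive cytosolic HSP90, led at 508 ± 12.7, and USP49, a deubiquitinase of FKBP51, was lowest at 1.71 ± 0.0254. On the IKK side the 16 activators had a median of 12.0 CPM per kilobase, from SHARPIN, a subunit of the linear ubiquitin ligase complex, at 33.2 ± 0.621 to BIRC3, a ubiquitin ligase, at 0.0783 ± 0.0161. NF-kappaB subunits and inhibitors had a median of 8.14 CPM per kilobase, from NFKBIB, an inhibitor, at 36.7 ± 0.128 to the subunit REL at 0.674 ± 0.197. IKK brakes were lower, at a median of 3.11 CPM per kilobase, from TNIP1 at 16.4 ± 0.0914 to TNFAIP3, the ubiquitin-editing enzyme A20, at 1.18 ± 0.300. The IKK-related kinases with their adaptor TANK had a median of 3.26 CPM per kilobase, with TBK1 highest and IKBKE lowest.

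**Figure D4:**
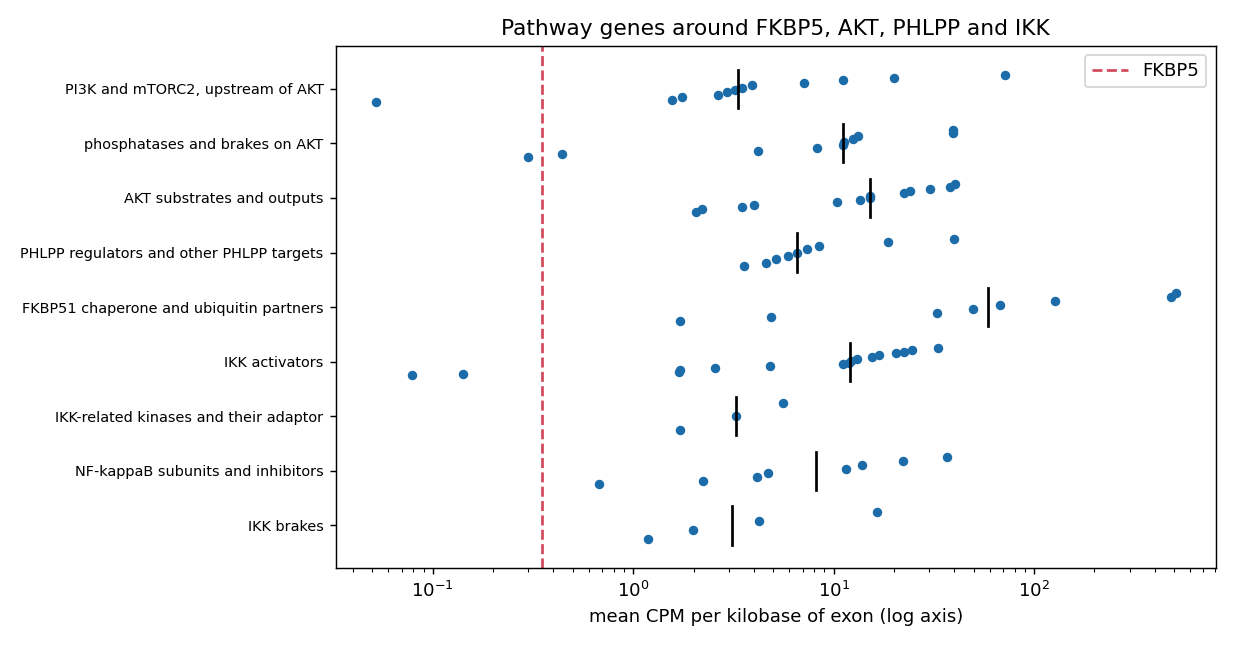
Mean level of each listed gene in CPM per kilobase of exon on a log axis, with a row for each of the 9 lists, a black bar at the list's median and a dashed line at FKBP5 (0.352). Of the 83 points, 4 lie left of the FKBP5 line, and the chaperone and ubiquitin partners have the highest median, 58.7.

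Between the libraries, 16 of the 80 listed genes that were tested passed (20.0%), 5 higher in sample 2 and 11 lower, beside 8.97% of all genes. Of the listed genes, 20 had at least 100 CPM and 7 of those passed, while 26.5% of all genes at that level did. Among all genes 8.33% passed at 10 to 100 CPM and 2.28% at 1 to 10 CPM. How far level accounts for the share of listed genes was not tested. The median log2 ratio of the lists together was -0.03. In the PI3K and mTORC2 list, PIK3CD, a catalytic subunit of PI3K, was higher in sample 2 (37.4 and 52.7 CPM), and PIK3R3 (27.6 and 20.0 CPM) and MLST8 (327 and 294 CPM) were lower. Of the brakes on AKT, 1 of 10 passed, PPP2CA, a catalytic subunit of protein phosphatase 2A (76.2 and 65.2 CPM). Of the AKT outputs, TSC2, a brake on mTORC1, was higher (289 and 310 CPM), and RHEB, the GTPase that TSC2 restrains (141 and 128 CPM), and GSK3A were lower. Of the PHLPP list, the kinase gene PRKCA was higher (52.9 and 62.3 CPM) and NHERF1 lower (99.5 and 86.0 CPM).

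Of the chaperone and ubiquitin partners 4 of 8 were lower in sample 2 and none higher, beside 4.56% lower over all genes tested. Of these 8 genes, 6 had at least 100 CPM, a level at which 26.5% of all genes passed in either direction. HSP90AA1 had 2572 and 2471 CPM, HSP90AB1 1541 and 1487 CPM, and PTGES3, the co-chaperone p23, 442 and 418 CPM, with FKBP4 as above. The test holds no variation between cultures, and edgeR's estimate of the coefficient of variation between the libraries, over 16311 genes, was 5.62%. Of the IKK activators, TRADD, an adaptor of the TNF receptor, was higher (27.4 and 33.7 CPM) and TRAF2 lower (66.5 and 57.3 CPM). REL was higher (7.04 and 10.7 CPM) among 8 NF-kappaB subunits and inhibitors, with 43.3% of its exonic bases inside AC010733.2 on the same strand. No gene of the IKK brakes or of the IKK-related kinases passed.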

How the data were processed

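RNA-seq counts of 2 FKBP5 knockdown samples (1 group, replicate numbers from the titles) were analysed. Deposited counts are unnormalized whole numbers for each Ensembl ID, and the deposited CPM equal those counts times 1 constant per library (100% whole within 1e-06). Tools and build named, per the submitters' processing notes, were STAR 2.7.7a, edgeR and GRCh38. Annotation, counting program and strand setting were not given in the sources used here. Library sizes behind the deposited CPM were 3.78% and 2.68% above the column totals. Exons, lengths, overlaps and sequences came from GENCODE 29 (GRCh38). Levels between genes are deposited CPM divided by joined exon length. The exact binomial test called 1393 genes, and a gene's p sums outcomes no likelier than the one seen. On simulated data for these libraries (15530 genes, Poisson error only, 100 genes changed at each fold) it recovered 69% of 1.5-fold and 85% of 2-fold changes and called 10 of 15330 unchanged genes. Such data hold no variation between libraries beyond counting, so these figures do not give the share of false calls among the 1393. No control exists here, so edgeR had no contrast to test. TMM (edgeR 4.0.16) and median-ratio (DESeq2 1.42.0) scalings, filters, a pseudocount of 0.25, lengths and leaving out each sample were alternatives. Members and lists were chosen with earlier results of these data known. Named genes were the members, their paralogs, each list's highest and lowest gene, those past the test and the 3 nearest to FKBP5. Some items that the rule or the marker lists select are not reported here. Python 3.11.15, scipy 1.17.1 and R 4.3.3 were used.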

Additional observations from a re-analysis of the deposited data

How the results depend on the processing

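The paralog shares moved with the length used. Library scaling cancels within a share, so only lengths and leaving out each sample were tried for the shares. With the longest annotated transcript as length, AKT1 held 41.4% of the sum of AKT1 and AKT2, CHUK 64.5% of the kinase pair, GSK3B 22.5% of its pair and FKBP5 0.727% of the sum with FKBP4, and the median member level was 7.49 CPM per kilobase. With coding length these were 52.8%, 64.1%, 39.5%, 1.43% and 16.5 CPM per kilobase, and PHLPP1 held 55.8%. With no length scaling they were 52.8%, 63.8%, 38.8% and 1.43%, and PHLPP1 held 61.5%. With the part of exons found in no other gene as length, added after seeing the data, GSK3B held 22.3%. In the order of the members, AKT2 led with the longest transcript, and GSK3B stood above CHUK with coding length, while FKBP5 was lowest under each of these 5 lengths. The number of members past the test between libraries was 2 with median-ratio size factors and 2 with a minimum of 10 CPM, IKBKB being added to PHLPP1. The number of listed genes past it was 9 with no filter and 12 with median-ratio size factors. It was 15 with column totals, against 16 in the main setting. The genes past the test were 685 higher in sample 2 and 708 lower, but 581 and 902 with column totals, 609 and 872 with TMM factors, and 861 and 551 with median-ratio factors. Of 76 log2 ratios of members and paralogs under the alternatives, 72 kept their side of the threshold, and the other 4 were for IKBKB and GSK3A. With median-ratio factors 2 ratios changed sign, neither past the test under any setting, AKT1 (from 0.00 to 0.02) and GSK3B (from 0.00 to 0.01). No paired analysis was possible because the samples form 1 group. Depth limits FKBP5 most, with 41 counts in sample 1. The causes of these shifts were not tested beyond the lengths and scalings themselves.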
